A study of Homo sapiens with 2 samples.

Results

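The 10 genes described here encode the enzymes that carry glucose phosphate to lactate, in pathway order GPI, PFKL, ALDOA, TPI1, GAPDH, PGK1, PGAM1, ENO1, PKM and LDHA. They were taken by gene symbol from the 11619 genes that both expression files list, and all 10 were found in both. The data came from NB4, a human acute promyelocytic leukemia (APL) cell line with the PML/RARα fusion. Cells were infected with lentivirus for an shRNA against the long non-coding RNA CRNDE (sh-CRNDE) or for a non-targeting shRNA (sh-Control), and total RNA was taken on day 3. There was 1 library in each group, both groups carried the lentiviral vector and were selected by its fluorescent marker, and which CRNDE shRNA was sequenced is not given in the sources used here. The spread between cultures is therefore unknown, and the differences below carry no test. In such bulk RNA, fewer cells of a kind and less RNA per cell cannot be told apart.

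Glycolysis turns glucose into pyruvate in the cytosol, and lactate dehydrogenase turns pyruvate into lactate while restoring the NAD+ that the pathway needs. An early phase spends ATP and splits the sugar, and a later phase returns ATP. Leukemic and other fast-growing cells are known to run this pathway at a high rate also when oxygen is present, and the transcription factors MYC and HIF1 are known activators of many of its genes. GAPDH was also the gene to which the study scaled its qRT-PCR measurements.

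The values are FPKM, fragment numbers corrected for transcript length and for the size of the library, so levels of different genes can be compared. The change of a gene is its log2(FPKM + 1) in sh-CRNDE less that in sh-Control, and a gene is called higher or lower where the change is past 1.5-fold, which is 0.585 on this scale. The added 1 draws changes toward 0, so a gene can fall short of the threshold though its FPKM differ by more than 1.5-fold. CRNDE itself, the targeted gene, was at 5.92 FPKM (sh-Control) and 1.85 FPKM (sh-CRNDE), a change of -1.28. The sums of all FPKM were 141217 in sh-Control and 170373 in sh-CRNDE, and the mitochondrial rRNA gene MT-RNR2 was listed at 0 in sh-Control but took 16.2% of the latter. The depth of the libraries is unknown. The myeloid label was checked with 8 marker genes, of which 7 are listed (not ELANE). Of these 7, 5 were past 1.5-fold, 1 higher and 4 lower, against 17.2% of all genes. Their changes ran from -2.23 to 2.48. MPO, at 1135 and 738 FPKM, is among the 4, but at -0.44 it was under the threshold once the median change of genes with like GC content was subtracted. The summed level of the 7 markers, most of it MPO, was 1433 FPKM (sh-Control) and 841 FPKM (sh-CRNDE). Their part in the results was not tested. Of 9 markers of lymphocytes, erythroid cells, platelets and fibroblasts, CD3D alone is listed, at 0.991 and 1.16 FPKM.

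None of the 10 glycolysis genes was past 1.5-fold in either direction. Of all 11619 genes, 17.2% were past it (8.38% on the higher side and 8.83% on the lower). Of the members, 7 had a mean level of at least 100 FPKM, and among the 191 genes at that level 13.1% were past 1.5-fold. The changes of the members ran from -0.38 in PFKL to 0.29 in LDHA, with 4 genes above 0 and 6 below. Their median change was -0.09, against -0.01 over all genes and 0.06 over the genes of at least 100 FPKM. Without regard to sign, the median change was 0.22 in the members, 0.25 in all genes and 0.22 in the genes of at least 100 FPKM. The size of the members' changes was thus near the middle of the distribution, and 67.8% of all genes had a change no larger than that of PFKL.

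**Figure D1:**
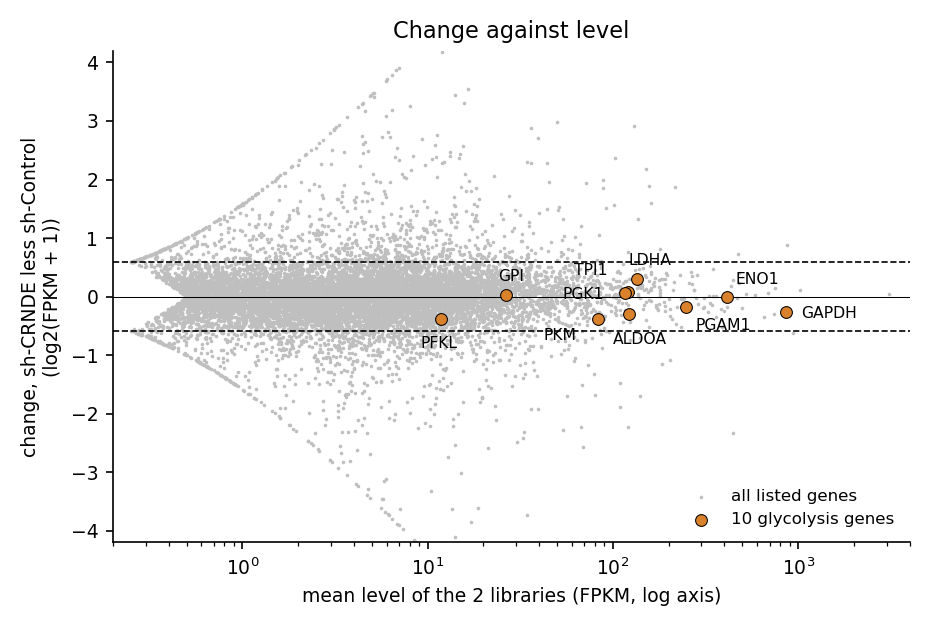
Each grey point is 1 of the listed genes, with its mean FPKM of the 2 libraries on a log axis and its change in log2(FPKM + 1) on the vertical axis. Dashed lines mark 1.5-fold, 21 genes fall outside the plotted range, and the 10 glycolysis genes, in orange, all lie between the dashed lines, from PFKL at -0.38 to LDHA at 0.29.

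The early, ATP-spending phase held the least expressed members. GPI (ENSG00000105220, chromosome 19, 34359480 to 34402413, plus strand, GRCh38), which turns glucose phosphate into fructose phosphate, was at 26.3 FPKM (sh-Control) and 26.7 FPKM (sh-CRNDE). Its change was 0.02. PFKL (ENSG00000141959, chromosome 21, 44300051 to 44327376, plus strand), the liver-type subunit of the phosphofructokinase that commits the sugar to glycolysis, was at 13.6 FPKM (sh-Control) and 10.2 FPKM (sh-CRNDE). That change of -0.38 was the lowest of the members, and 16.8% of all genes had a lower one. ALDOA (ENSG00000149925, chromosome 16, 30064164 to 30070457, plus strand), the aldolase that splits the sugar, was at 135 FPKM (sh-Control) and 109 FPKM (sh-CRNDE), a change of -0.31. TPI1 (ENSG00000111669, chromosome 12, 6867119 to 6870948, plus strand), which interconverts the products of the split, was at 117 FPKM (sh-Control) and 123 FPKM (sh-CRNDE), a change of 0.08. In this phase 2 of 4 genes were thus higher in sh-CRNDE and 2 were lower, and the median change was -0.14.

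The later phase held the most expressed members. GAPDH (ENSG00000111640, chromosome 12, 6534512 to 6538374, plus strand), which oxidises the triose phosphate and makes NADH, was at 942 FPKM (sh-Control) and 785 FPKM (sh-CRNDE). It ranked 4 of all genes by level in sh-Control and 6 in sh-CRNDE, and its change was -0.26. PGK1 (ENSG00000102144, chromosome X, 77910739 to 78129295, plus strand), the first enzyme of the pathway to return ATP, was at 114 FPKM (sh-Control) and 118 FPKM (sh-CRNDE), a change of 0.06. PGAM1 (ENSG00000171314, chromosome 10, 97426191 to 97433444, plus strand), which moves the phosphate group along the molecule, was at 262 FPKM (sh-Control) and 231 FPKM (sh-CRNDE), a change of -0.18.

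ENO1 (ENSG00000074800, chromosome 1, 8861000 to 8879190, minus strand), the enolase that makes phosphoenolpyruvate, was level, at 415 FPKM (sh-Control) and 414 FPKM (sh-CRNDE). PKM (ENSG00000067225, chromosome 15, 72199029 to 72231819, minus strand), the pyruvate kinase that returns ATP at the end of the pathway, was at 93.8 FPKM (sh-Control) and 72.0 FPKM (sh-CRNDE). Its change of -0.38 was close to that of PFKL. The files give 1 value for each gene, so the spliced forms of PKM cannot be told apart. Of the 5 genes of this phase, 1 was higher in sh-CRNDE, and the median change was -0.18.

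LDHA (ENSG00000134333, chromosome 11, 18394560 to 18408425, plus strand), which makes lactate from pyruvate, was at 121 FPKM (sh-Control) and 149 FPKM (sh-CRNDE). Its change of 0.29 was the highest of the members, and 79.6% of all genes had a lower one. Neighbouring members in the pathway therefore went opposite ways at its end, with PKM lower by 21.8 FPKM and LDHA higher by 27.7 FPKM. Under 8 alternative scalings, corrections and pseudocounts LDHA stayed above 0, and PFKL, ALDOA, GAPDH, PGAM1 and PKM stayed below it. The sign of GPI, TPI1, PGK1 and ENO1 turned under at least 1 of them. A change of pseudocount cannot turn a sign, and every alternative rests on the same 2 libraries. With values rescaled to the same sum in each library, LDHA was at 0.03.

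**Figure D2:**
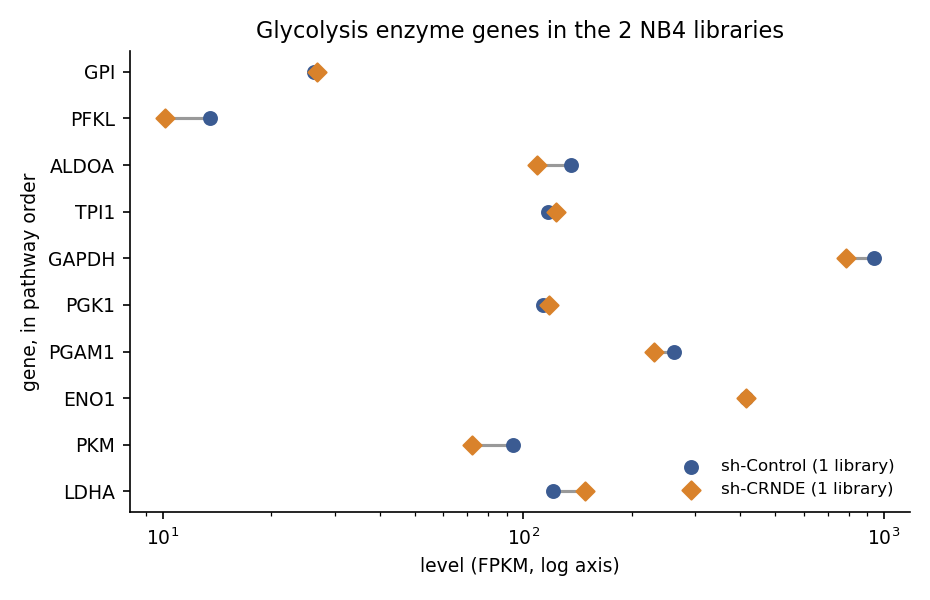
The level of each glycolysis gene in FPKM, on a log axis and in pathway order from top to bottom, is shown for sh-Control (blue circle) and sh-CRNDE (orange diamond), 1 library each. The spread between genes, from PFKL at 13.6 to GAPDH at 942 FPKM in sh-Control, was far wider than the gap between the libraries for any gene.

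The spread of levels among the members was wide and much alike in the 2 libraries. The highest member, GAPDH, stood 69.5 times above the lowest, PFKL, in sh-Control and 77.2 times in sh-CRNDE. GAPDH and ENO1 together made up 60.6% of the members' summed FPKM in sh-Control and 58.8% in sh-CRNDE. The order of levels was the same in both libraries at 6 of the 10 places. LDHA stood below ALDOA in sh-Control and above it in sh-CRNDE. The 10 genes together made up 1.59% of the FPKM of all genes in sh-Control and 1.197% in sh-CRNDE. With mitochondrial genes and genes for ribosomal and small RNA left out of the sum, the shares were 1.59% and 1.44%.

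The members' changes tended to be lower where the GC content of their transcripts was higher. The GC content of the canonical transcript ran from 41.8% in LDHA and 42.8% in PGK1 to 60.5% in ALDOA and 63.4% in PFKL. To show this contrast, the opening 90 coding bases of 4 members follow in the 5′ to 3′ direction, from the GENCODE release 44 canonical transcripts, with G and C in capitals.
LDHA: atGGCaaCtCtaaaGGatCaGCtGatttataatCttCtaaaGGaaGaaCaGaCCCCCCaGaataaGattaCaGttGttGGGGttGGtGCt
PGK1: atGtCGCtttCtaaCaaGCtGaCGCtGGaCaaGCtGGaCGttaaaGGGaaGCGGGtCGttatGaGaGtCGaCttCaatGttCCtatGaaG
PKM: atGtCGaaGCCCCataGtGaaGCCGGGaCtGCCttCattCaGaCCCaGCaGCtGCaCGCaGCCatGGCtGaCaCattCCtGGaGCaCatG
PFKL: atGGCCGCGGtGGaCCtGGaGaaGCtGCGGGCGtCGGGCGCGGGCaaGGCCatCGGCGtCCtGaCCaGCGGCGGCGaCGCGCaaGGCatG
Of these 90 bases, 37 are G or C in LDHA, 43 in PGK1, 52 in PKM and 67 in PFKL. At the third positions of all codons the share of G and C was 46.7% in LDHA, 55.9% in PGK1, 66.5% in PKM and 83.7% in PFKL. The coding sequences of the other members did not all keep to this order. GPI, with a change of 0.02, had 75.8% at the third positions and 60 G or C among its opening 90 bases, both above PKM, and PGAM1 had 58 among its opening 90.

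Across the 10 members, which share both libraries, Pearson's r between GC content and change was -0.83 and Spearman's rho was -0.87. The same direction was present over the 11508 genes with a GC value, with a Pearson's r of -0.24 and a Spearman's rho of -0.39. These are descriptions across genes, which are not replicates. The median change of all genes was 0.12 at a GC content from 40 to 45%, where LDHA and PGK1 lie. It was -0.06 from 50 to 55%, the range of GPI, TPI1, PGAM1 and ENO1. From 55 to 60%, where GAPDH and PKM lie, it was -0.16, and above that, where ALDOA and PFKL lie, it was -0.29. Less the median of genes with like GC content (20 bins), the changes of the members ran from -0.21 in PKM to 0.17 in LDHA. That put PFKL at -0.12 and ALDOA at -0.08. The part of base composition in the members' differences was not tested.

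**Figure D3:**
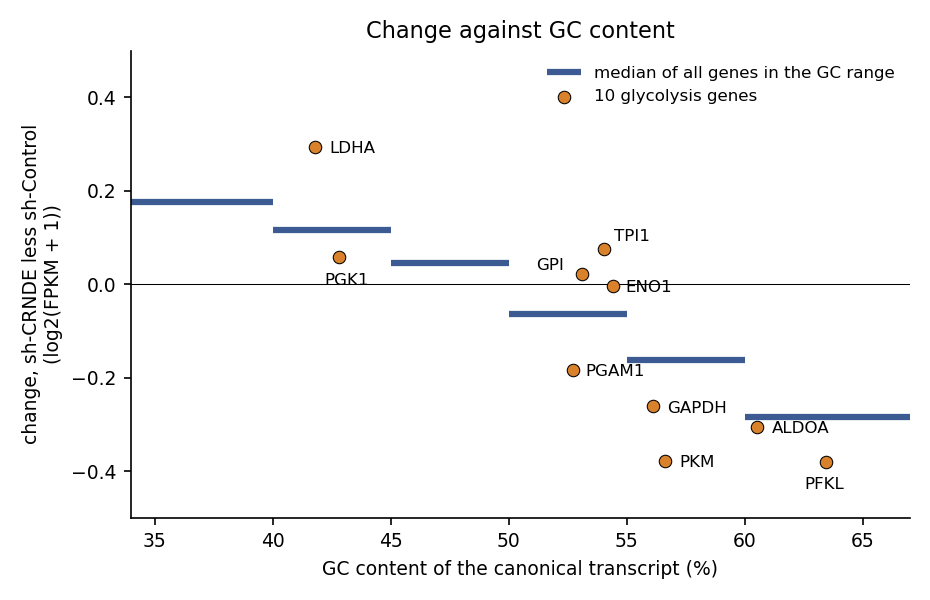
The change of each glycolysis gene in log2(FPKM + 1) is plotted against the GC content of its canonical transcript in percent. Orange points are the 10 genes, and blue bars are the medians of all genes in the same GC range, which go from 0.18 in the lowest range to -0.29 in the highest, the outer ranges being open-ended.

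Most steps of the pathway were carried by 1 isozyme in these cells, and the leading isozyme was the same in both libraries. For hexokinase, which phosphorylates glucose at the entry of the pathway, HK2 was at 30.6 FPKM (sh-Control) and 28.9 FPKM (sh-CRNDE). HK1 rose from 1.095 to 2.20 FPKM, a change of 0.61, and was the sole isozyme gene past 1.5-fold. HK2 still made up 92.9% of the listed hexokinase FPKM in sh-CRNDE, against 96.5% in sh-Control. HK3 is not among the listed genes.

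The platelet-type phosphofructokinase PFKP was above PFKL in both libraries, at 21.2 FPKM (sh-Control) and 19.4 FPKM (sh-CRNDE). The share of PFKL in their sum was 39.0% in sh-Control and 34.4% in sh-CRNDE. ALDOC, at 1.01 and 1.45 FPKM, added little to ALDOA, and ENO2 and ENO3 stayed under 0.52 FPKM beside ENO1. Most lactate dehydrogenase RNA was LDHB, the heart-type subunit, at 471 FPKM (sh-Control) and 464 FPKM (sh-CRNDE). The share of LDHA in the sum of both went from 20.4% to 24.3%. Of 11 listed genes for isozymes and side steps, 10 were thus not past 1.5-fold, ADPGK (13.8 and 12.0 FPKM), BPGM (2.75 and 3.67 FPKM), LDHD (1.53 and 0.820 FPKM) and PGAM4 among them. The FPKM of LDHD differ by more than 1.5-fold, but with the added 1 its change was -0.47.

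PGAM4 is a retrocopy of PGAM1 that has kept its reading frame, and reads of the pair are hard to tell apart. It was listed at 17.8 FPKM (sh-Control) and 13.9 FPKM (sh-CRNDE), which is 6.78% and 6.02% of the level of PGAM1. PGAM4 has 1 exon on chromosome X (77967949 to 77969638, minus strand, GRCh38), and PGAM1 has 4. PGAM4 lies within the span of PGK1 on the opposite strand, and the library kit does not mark strand. Whether reads of PGK1 add to the PGAM4 value was not tested. The coding sequences of PGAM1 and PGAM4, 762 bases without the stop codon, differ at 13 positions and are 98.3% identical. Their longest identical stretch is 269 bases. Coding positions 28 to 87, counted from the start codon, hold the most differences of any 60 bases, 3 in all, which are in capitals here.
PGAM1: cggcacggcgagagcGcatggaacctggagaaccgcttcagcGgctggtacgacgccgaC
PGAM4: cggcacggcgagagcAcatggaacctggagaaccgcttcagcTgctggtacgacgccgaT
With the FPKM of PGAM4 added, the change of PGAM1 was -0.19 in place of -0.18. GENCODE holds 101 further genes named as processed copies of the members, 65 of them of GAPDH, but the files list 4 of these. They were TPI1P1 (2.22 and 2.94 FPKM), LDHAP4 (2.44 and 3.72 FPKM), LDHAP3 (1.1002 and 1.36 FPKM) and LDHAP2 (listed at 0 and at 0.845 FPKM). Adding them gave a change of 0.31 for LDHA and 0.08 for TPI1.

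GAPDH was set against 13 other genes in common use as qRT-PCR references. The primers that the study used for GAPDH are shown because they fix what its measurements were scaled to.
GAPDH forward primer: gaaggtgaaggtcggagtc
GAPDH reverse primer: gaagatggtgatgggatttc
They span coding positions 6 to 231 of GAPDH, a product of 226 bases, and GENCODE transcripts of 1 other gene, GAPDHP1, hold both sites.

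From sh-Control to sh-CRNDE, the log2 ratio of GAPDH to the reference gene was lower for 10 of the 13 genes and higher for 3, and the median difference was -0.30. The median change of the 13 reference genes themselves was 0.04. Their GC content ran from 39.1% in B2M to 55.5% in GUSB, and that of GAPDH was 56.1%. Less the median of genes with like GC content, the change of GAPDH was -0.12. The part of GC content in these ratios was not tested. ACTB, the cytoskeletal actin, went with GAPDH, from 814 to 659 FPKM, and the ratio of the pair differed by 0.04 between the libraries. So did RPL13A (411 and 357 FPKM, difference -0.06) and RPS18 (404 and 315 FPKM, difference 0.09), both genes of ribosomal proteins. The ratio was lower against 5 genes, with differences from -0.20 to -0.37, which were TBP, RPLP0, GUSB, B2M and EEF1A1, and it was higher by 0.31 against HPRT1 (52.3 and 34.8 FPKM).

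The ratio differed by more in 4 further genes. Against YWHAZ (57.4 and 70.2 FPKM) it fell short of 1.5-fold with a difference of -0.55, and against PPIA (235 and 299 FPKM) and TFRC (45.8 and 64.6 FPKM) it was past it, at -0.61 and -0.75. The tubulin gene TUBB rose from 93.0 to 342 FPKM, and its ratio differed by -2.13. TUBB was the gene of the 13 whose own change was past 1.5-fold. HPRT1, with a change of -0.57, was close to the threshold, and its FPKM differ by just over 1.5-fold. Taken relative to GAPDH on the scale of log2(FPKM + 1), the change of CRNDE was -1.02 in place of -1.28. That scale understates the change of CRNDE. With a pseudocount of 0.01 in place of 1, CRNDE was at -1.68 and GAPDH at -0.26.

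**Figure D4:**
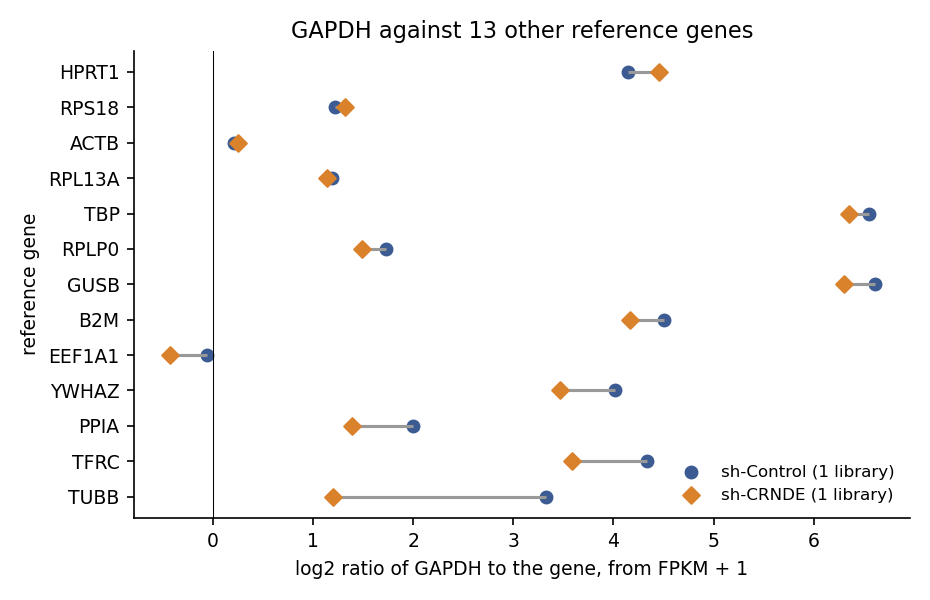
The log2 ratio of GAPDH to each of 13 reference genes, from FPKM + 1, is shown for sh-Control (blue circle) and sh-CRNDE (orange diamond), 1 library each. Genes are ordered by the difference between the libraries, from -2.13 in TUBB at the bottom to 0.31 in HPRT1 at the top, and ACTB lies near 0 with 0.04.

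The genes next to glycolysis were described by 10 lists, from isozymes and regulators to the citric acid cycle, HIF1 and MYC. In them, 78 genes are listed and 11 of them, 14.1%, were past 1.5-fold, with 5 higher and 6 lower, against 17.2% of all genes. PFKFB3, which makes the fructose bisphosphate that activates phosphofructokinase, fell from 4.44 to 1.995 FPKM, with a change of -0.86. TIGAR, a phosphatase that removes the same activator, rose from 0.625 to 1.49 FPKM, with a change of 0.62. PFKFB4, also listed, was at 0.501 and 0.607 FPKM.

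Of 7 listed transport genes, 1 was past 1.5-fold. SLC16A1, which encodes the lactate carrier MCT1, fell from 46.6 to 20.8 FPKM, a change of -1.13. SLC16A3, the lactate carrier MCT4, was at 15.1 FPKM (sh-Control) and 11.5 FPKM (sh-CRNDE), and BSG, the chaperone that both carriers need, at 73.9 and 59.96 FPKM. The listed sugar carriers of the SLC2A family, not all of them glucose carriers, were SLC2A1 (13.0 and 12.4 FPKM) and SLC2A3 (4.96 and 7.25 FPKM). The others were SLC2A6 (1.97 and 2.05 FPKM) and the fructose carrier SLC2A5 (4.35 and 2.60 FPKM). The change of SLC2A5 was -0.57, close to the threshold, and without the added 1 its FPKM differ by more than 1.5-fold.

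None of 6 listed pentose phosphate pathway genes was past 1.5-fold. The most expressed was PGD, at 59.0 and 58.1 FPKM. At the entry of pyruvate into mitochondria, 10 of 12 genes were not past 1.5-fold, and DLAT, the most expressed of them, was at 32.5 and 33.8 FPKM. The exceptions were PDK1 and PDP2, regulators of the pyruvate dehydrogenase complex. Other listed regulators of the complex, PDP1 (1.85 and 1.78 FPKM), PDPR (11.8 and 11.7 FPKM) and PDK3 (1.54 and 1.86 FPKM), were not past 1.5-fold. PDK1, a kinase that switches the complex off, rose from 1.24 to 2.57 FPKM, a change of 0.67. PDP2, a phosphatase that switches it on, fell from 3.25 to 0.139 FPKM, a change of -1.90.

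In the citric acid cycle, 13 of 16 genes were not past 1.5-fold, and the median change was -0.13. CS, citrate synthase, which opens the cycle, fell from 51.1 to 23.0 FPKM, a change of -1.12. IDH3A, a subunit of the NAD-dependent isocitrate dehydrogenase, fell from 17.4 to 10.8 FPKM, a change of -0.64. SUCLA2, a subunit of succinyl-CoA ligase, rose from 15.9 to 25.3 FPKM, also a change of 0.64. MDH2, the most expressed gene of the cycle, was at 94.7 and 88.4 FPKM.

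Among 4 listed genes of gluconeogenesis, led by PCK2 (6.98 and 5.37 FPKM), none was past 1.5-fold. All 4 were lower in sh-CRNDE, with changes from -0.50 in SLC37A4 to -0.065 and a median of -0.27. The FPKM of SLC37A4 (5.96 and 3.90) differ by more than 1.5-fold without the added 1. None of 4 genes that move NADH equivalents into mitochondria, led by GOT2 (39.1 and 46.4 FPKM), was past 1.5-fold. With the GC-bin median subtracted as above, TIGAR (0.49), PDK1 (0.51) and SUCLA2 (0.47) were under the threshold, while SLC16A1, CS, PDP2, PFKFB3, IDH3A and HK1 were still past it.

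**Figure D5:**
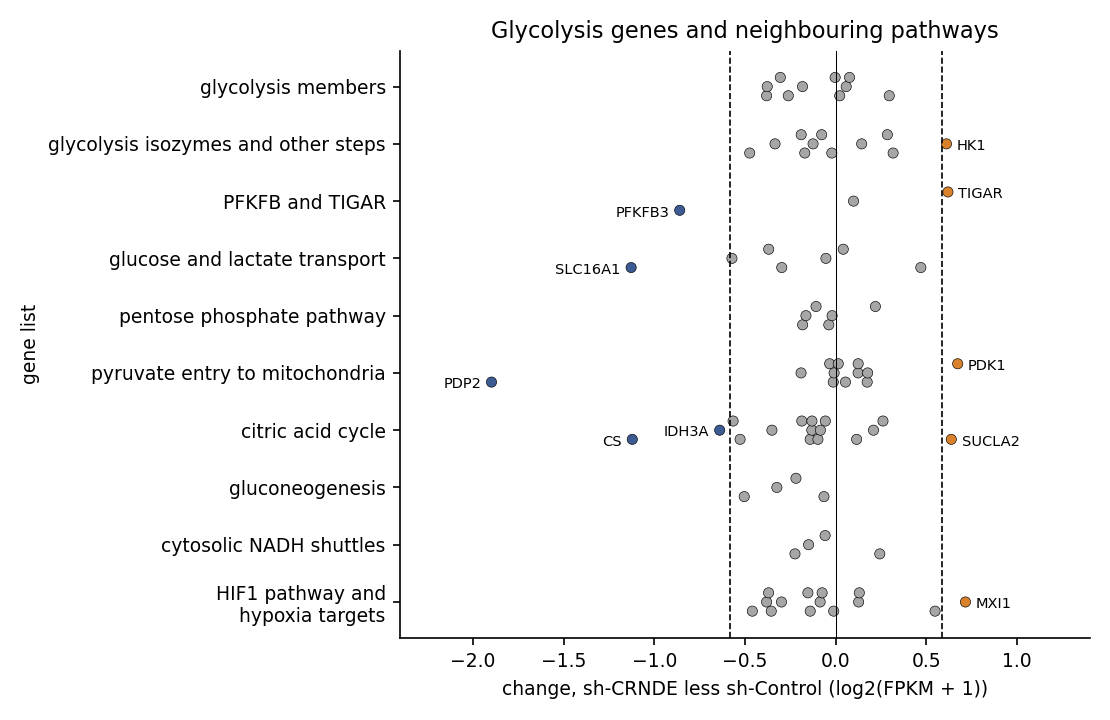
Each point is 1 listed gene, placed by its change in log2(FPKM + 1) in the row of its list, and vertical offsets within a row carry no value. Dashed lines mark 1.5-fold, and named genes past it are orange where higher and blue where lower in sh-CRNDE. The top row, the 10 glycolysis genes, has no gene past the lines, while PDP2 at -1.90 and SLC16A1 at -1.13 lie farthest to the left.

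Of the known activators of glycolysis genes, MYC fell from 43.8 to 26.9 FPKM, a change of -0.68, and HIF1A was at 15.97 FPKM (sh-Control) and 12.8 FPKM (sh-CRNDE), a change of -0.30. Of 14 listed genes of the HIF1 pathway and its targets outside glycolysis, 13 were not past 1.5-fold and their median change was -0.11. MXI1, which encodes a MAX partner that opposes MYC, rose from 2.64 to 4.98 FPKM. P4HA1 (19.0 and 14.6 FPKM), BNIP3 (16.8 and 15.1 FPKM) and VEGFA (1.17 and 1.05 FPKM), all lower, were not past 1.5-fold. Nor was BNIP3L, which went the other way, from 3.42 to 5.46 FPKM, a change of 0.55. Without the added 1, the FPKM of BNIP3L differ by more than 1.5-fold. ARNT and VHL were also higher, each with a change of 0.13.

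The promoters of the members with the highest and the lowest change are shown because MYC and HIF1 are known to bind short motifs in such regions. The 250 bases before the RefSeq start (GRCh38.p14) were searched on both strands for the E-box CACGTG and for the HIF1 core, ACGTG or GCGTG, whose ACGTG form is contained in the E-box. Matches are in capitals.
LDHA, chr11:18394313-18394562, plus strand: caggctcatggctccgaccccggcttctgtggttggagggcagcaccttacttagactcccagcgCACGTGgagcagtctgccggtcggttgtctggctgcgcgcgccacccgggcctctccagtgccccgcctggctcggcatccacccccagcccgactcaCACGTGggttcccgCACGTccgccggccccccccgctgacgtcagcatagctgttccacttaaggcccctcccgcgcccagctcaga
PFKL, chr21:44299803-44300052, plus strand: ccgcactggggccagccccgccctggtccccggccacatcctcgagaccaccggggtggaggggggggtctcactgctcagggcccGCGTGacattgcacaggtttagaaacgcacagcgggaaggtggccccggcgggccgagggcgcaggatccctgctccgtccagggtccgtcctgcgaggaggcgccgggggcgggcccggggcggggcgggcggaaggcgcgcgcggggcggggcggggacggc
The LDHA window shown held 2 E-boxes and 1 further HIF1 core, and the PFKL window shown held 1 HIF1 core and no E-box. Another LDHA window, not shown, held the GCGTG form of the core. RefSeq gives 14 windows for the 10 members. An E-box was in 3 of them, those of ALDOA, GAPDH and LDHA, against 6.34% of 35116 windows of all genes. A HIF1 core was in 11 of the 14, from 8 genes, against 43.2% of all windows, and PGAM1 and PKM had none. The members with an E-box in these windows had changes of 0.29 (LDHA), -0.26 (GAPDH) and -0.31 (ALDOA), none past 1.5-fold. A gene can have more than 1 window, and the comparison with all windows was not matched for GC content. The windows shown had 69.6% G or C in LDHA and 78% in PFKL. The part of the motifs in the members' changes was not tested.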

How the data were processed

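RNA of 2 NB4 libraries, 1 per group, was made into TruSeq RNA v2 libraries, a kit that does not mark strand. The submitters' processing notes name fastp 0.20.0, HISAT2 2.0.4 and StringTie 1.2.3 on GRCh38. The authors deposited FPKM values per gene, and every listed gene is above 0.5 FPKM in at least 1 library. FPKM values keep no read counts, so no counting error can be given. Samples were grouped by their titles. Changes were computed over all 11619 genes with a pseudocount of 1, no filter and no scaling, and the threshold is the study's 1.5-fold. Changes of lowly expressed genes are understated on this scale. The computation was tested on simulated data. The members and gene lists were chosen with earlier results of these data known. A few genes of the marker, reference and neighbouring lists are not reported here, and list counts leave them out. Named are all members, CRNDE, listed isozymes, copies and reference genes, and from each neighbouring list the genes past 1.5-fold and the most expressed one. Myeloid markers are given as a range, and MPO and other further genes were chosen after their values were seen. Identifiers were matched to GENCODE release 44 (11508 matched, 111 did not), which gave positions, exons and canonical transcripts. Primers were read from the study's primer list. Alternatives were other pseudocounts, scalings, thresholds and corrections for level or GC content in 20 bins. Python 3.11.15, numpy 2.4.6, pandas 2.3.3 and matplotlib 3.10.9 were used.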

Additional observations from a re-analysis of the deposited data

How the results depend on the processing

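With 1 library per group, no alternative could leave out a replicate. No paired analysis was possible because each group has 1 library. Rescaling to TPM over all genes lowered the median change of all genes to -0.27, since MT-RNR2 takes part of the sum in sh-CRNDE. There the members' median was -0.36, and 2 members were past 1.5-fold, PFKL at -0.68 and PKM at -0.65, which relative to that shift is close to their reported values. Of all genes, 34.1% were past 1.5-fold there. No member was past 1.5-fold under the other alternatives. The count of 11 genes past 1.5-fold in the neighbouring lists became 18 and 19 with pseudocounts of 0.1 and 0.01, 24 with TPM over all genes and 19 with TPM once mitochondrial genes and those for ribosomal and small RNA were left out. Over all genes the share past 1.5-fold rose as well, from 17.2% to 28.4%, 30.0%, 34.1% and 27.8% in the same order. A pseudocount weighs less on low genes in all 4 settings, and TPM over all genes also carries the shift given above. The members' share of summed FPKM was different by -0.39 percentage points, sh-CRNDE less sh-Control, and by -0.15 without those genes in the sum. SUCLA2 was at 0.39 with TPM over all genes, and with the GC subtraction MPO was at -0.44, TIGAR at 0.49 and PDK1 at 0.51, all under the threshold. Medians were taken to have moved past 0.1 and counts past 1.5 times. The unknown depth limits all low values, such as those of HK1, TIGAR, PDK1 and PDP2.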
